A study of Mus musculus with 24 samples.

Results

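The tumour necrosis factor (TNF) superfamily genes described here are the ligand genes Tnf, Tnfsf9, Tnfsf10, Tnfsf14 and Ltb and the receptor genes Tnfrsf1a, Tnfrsf1b and Fas. They were taken by name, and each probe set whose annotation gave only 1 of these symbols was kept. That gave 12 probe sets for 8 genes, out of 45033 probe sets with values and 18193 genes with a probe set of their own. Tnfsf10 had 3 probe sets, Tnfsf14 and Tnfrsf1b had 2 each, and the other genes had 1. Where a gene had several, the one with the highest mean over all arrays is called the main probe set.

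RNA came from bone marrow-derived macrophages (macrophages grown from marrow precursors in culture for 6 days) of male mice, and was measured on 24 Affymetrix expression arrays. Every strain, the controls included, lacked Il10 through the Il10tm1Cgn allele, so no group had this anti-inflammatory cytokine. C3Bir (C3H/HeJBir-Il10tm1Cgn) is susceptible to colitis and B6 (C57BL/6J-Il10tm1Cgn) is resistant. Chromosome 3 carries Cdcs1, a locus for susceptibility to colitis. BC-R3 (labelled B6.C3Bir-Cdcs1) is B6 with the C3Bir alleles at Cdcs1. CB-R1 (labelled C3Bir.B6-Cdcs1) is C3Bir with a long piece of B6 chromosome 3 across Cdcs1. In each strain 3 arrays were from cells left unstimulated and 3 from cells given 1 µg/mL of Cbir flagellin, a protein of the flagella of gut commensals, over the final 4 h. Each RNA sample pooled 3 wells. The labels name 3 mice per genotype but tie no array number to a mouse, so the p-values below reflect only how far these arrays spread, which may be technical.

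Ligands of this family are mostly trimers on the cell surface, several of which can also be shed, and they act by clustering their receptors. Receptors with a cytoplasmic death domain can start apoptosis or necroptosis, and most receptors recruit TRAF adaptors that switch on NF-kB and MAP kinases. In macrophages, bacterial products are a classical trigger of Tnf transcription, and TNF receptor signalling in turn raises some of the same genes. TNF is a central cytokine of intestinal inflammation.

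The values are the authors' log2 values per probe set, and how they were computed and normalized is not stated. They carry no detection call, and the number of arrays limits the precision. Array medians were 6.55 to 6.64, lower quartiles 5.29 to 5.42, and correlations within groups 0.987 to 0.998. On every array all 9 measured macrophage markers of 10 lay above the array's median (mean over the list, 11.98 to 12.49). Means were 6.08 to 6.38 for T and NK cell markers, 6.57 to 6.97 for B cell markers, 6.70 to 7.20 for dendritic cell markers, 5.89 to 6.22 for mast cell and basophil markers, 7.00 to 9.03 for stromal cell markers and 10.53 to 12.17 for neutrophil markers. In such bulk RNA, fewer cells of a type and less RNA per cell cannot be told apart.

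Some arrays stood apart from others with the same labels, and many results below rest on them. Unstimulated arrays 2 and 3 of B6 and of C3Bir, called the 4 high arrays, were the ones highest in inflammatory cytokine genes in earlier results of these data. Array 1 of unstimulated B6, C3Bir and BC-R3 lay away from the other arrays of its own group, and these are called the 3 arrays apart. Both sets were picked from the values, so results without them are descriptions of how far a result rests on them. Leaving aside the 4 high arrays leaves 1 unstimulated array each in B6 and C3Bir, so calls lost then can also reflect fewer arrays. Leaving aside the 3 arrays apart can lower the spread that all comparisons share, so calls gained then can follow from the choice of arrays. No pair of arrays held identical values.

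Tnf, the name-giving cytokine of the family, varied most among the ligands. Its log2 values on unstimulated arrays 1, 2 and 3 were 11.40, 13.31 and 13.26 in B6, 8.64, 11.45 and 11.16 in C3Bir, 11.17, 8.89 and 8.99 in BC-R3, and 8.41, 8.48 and 8.61 in CB-R1. On the flagellin arrays they were 10.90, 10.69 and 10.13 in B6, 8.87, 9.36 and 9.38 in C3Bir, 10.02, 9.80 and 10.95 in BC-R3, and 8.74, 8.67 and 8.77 in CB-R1. The unstimulated B6 arrays were the highest group (12.66 ± 1.09, SD, n = 3) although its array 1 lay just under C3Bir array 2, while both CB-R1 groups were the lowest. Between them, B6 with flagellin, unstimulated C3Bir, BC-R3 with flagellin and unstimulated BC-R3 overlapped in turn. Within unstimulated C3Bir and unstimulated BC-R3 the single arrays lay over 2 log2 units apart, so the spread within these groups was as large as most differences between groups.

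Tnfsf9, the ligand of the costimulatory receptor 4-1BB, followed nearly the same course. Its unstimulated values were 8.38, 9.59 and 9.73 in B6, 6.47, 7.90 and 7.79 in C3Bir, 8.30, 7.01 and 7.00 in BC-R3, and 6.52, 6.40 and 6.51 in CB-R1. With flagellin they were 7.77, 7.65 and 7.22 in B6, 6.40, 6.97 and 6.86 in C3Bir, 7.40, 7.38 and 7.76 in BC-R3, and 6.65, 6.50 and 6.60 in CB-R1. As for Tnf, the high arrays of C3Bir and of BC-R3 were different array numbers, and CB-R1 was low and tight in both conditions (6.48 ± 0.07 and 6.58 ± 0.07, SD, n = 3 each).

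Tnfsf10 encodes TRAIL, a ligand of death receptors that is a well-known interferon-induced gene. On its main probe set the unstimulated values were 8.12, 9.66 and 9.35 in B6, 6.89, 7.03 and 6.86 in C3Bir, 7.51, 6.71 and 6.56 in BC-R3, and 6.57, 6.87 and 7.46 in CB-R1. With flagellin they were 7.34, 6.68 and 6.87 in B6, 7.15, 6.66 and 6.60 in C3Bir, 6.82, 6.77 and 7.17 in BC-R3, and 7.09, 7.11 and 7.73 in CB-R1. The 3 unstimulated B6 arrays lay above all 21 other arrays, and the other 7 groups, with means from 6.80 to 7.31, overlapped in order. The other Tnfsf10 probe sets gave the same picture: unstimulated B6 read 7.21, 8.48 and 8.49 on the second and 6.61, 7.82 and 7.78 on the lowest of them, against at most 7.01 and 6.56 elsewhere.

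Tnf and Tnfsf10 thus parted in C3Bir. Unstimulated C3Bir arrays 2 and 3 were, with unstimulated BC-R3 array 1, the highest for Tnf outside unstimulated B6. For Tnfsf10 they read 7.03 and 6.86, within the 6.60 to 7.15 of the C3Bir flagellin arrays. CB-R1, the lowest strain for Tnf, had Tnfsf10 values up to 7.73. Over the 24 arrays the correlation of Tnf with the Tnfsf10 main probe set was 0.713, and 0.376 without the 4 high arrays, as a description over arrays that share groups.

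**Figure D1:**
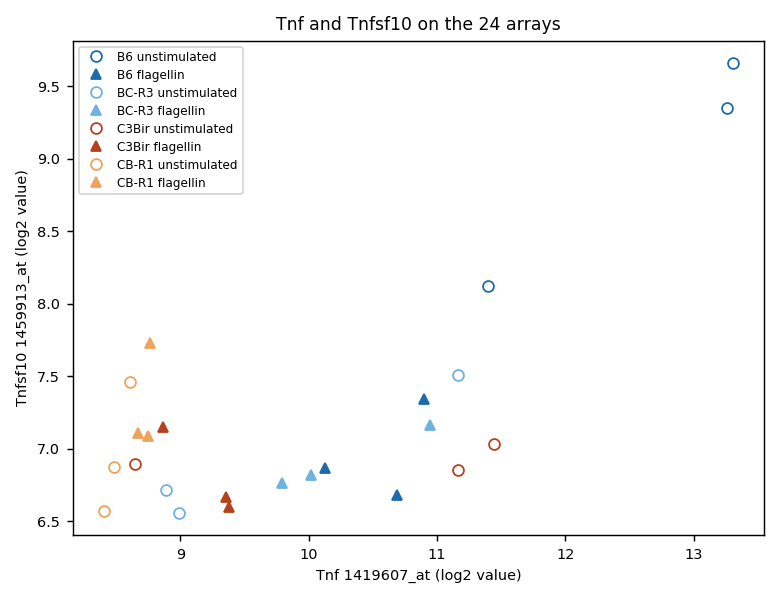
Log2 value of Tnf (x axis) against log2 value of the Tnfsf10 main probe set (y axis), 1 point per array, coloured by strain, with open circles for unstimulated and filled triangles for flagellin arrays. The 3 unstimulated B6 arrays stand at the upper right; unstimulated C3Bir arrays 2 and 3 have Tnf of 11.45 and 11.16 with Tnfsf10 of 7.03 and 6.86.

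Tnfsf14 encodes LIGHT, a ligand of the lymphotoxin beta receptor and of HVEM, and was at the bottom of the scale. Its main probe set ranged from 5.59 to 6.07 over all arrays with every neighbouring pair of groups overlapping, and its second probe set from 4.99 to 5.56. Those second values lie about or under each array's lower quartile, so differences on it are differences in signal and no fold is given.

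Ltb encodes lymphotoxin beta, the membrane partner of lymphotoxin alpha, and its order of groups was another one. Its unstimulated values were 6.58, 6.68 and 6.91 in B6, 7.03, 7.10 and 7.02 in C3Bir, 6.90, 6.40 and 5.67 in BC-R3, and 7.07, 7.55 and 7.24 in CB-R1. With flagellin they were 6.78, 6.56 and 6.11 in B6, 7.24, 6.84 and 6.48 in C3Bir, 6.52, 6.42 and 6.22 in BC-R3, and 7.36, 7.74 and 7.52 in CB-R1. CB-R1, lowest for Tnf, was highest for Ltb, and the 4 high arrays did not stand out.

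Tnfrsf1a encodes TNFR1, the death domain receptor of TNF found on most cells, and was the flattest of the receptors. Unstimulated values were 11.30, 11.30 and 11.25 in B6, 10.93, 10.77 and 10.69 in C3Bir, 11.14, 10.96 and 10.98 in BC-R3, and 10.92, 10.97 and 10.93 in CB-R1. With flagellin it read 11.22, 11.14 and 11.01 in B6, 11.01, 10.90 and 10.85 in C3Bir, 10.99, 10.99 and 11.13 in BC-R3, and 10.99, 10.97 and 10.97 in CB-R1. All 24 arrays lay within 1 log2 unit, with unstimulated B6 highest and unstimulated C3Bir lowest.

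Tnfrsf1b encodes TNFR2, the TNF receptor without a death domain that is abundant on myeloid cells. On the main probe set unstimulated values were 12.69, 13.09 and 13.08 in B6, 11.93, 12.86 and 12.80 in C3Bir, 12.80, 12.06 and 11.95 in BC-R3, and 11.52, 11.61 and 11.75 in CB-R1. With flagellin they were 12.65, 12.49 and 12.56 in B6, 11.93, 12.23 and 12.17 in C3Bir, 12.42, 12.53 and 12.58 in BC-R3, and 11.79, 11.73 and 11.78 in CB-R1. All 6 CB-R1 arrays were below the other 18, as Tnf was on CB-R1 arrays except for overlap with C3Bir array 1. On the second probe set CB-R1 was also lowest by mean, at 9.52, 9.62 and 10.83 unstimulated and 10.25, 10.40 and 10.84 with flagellin, and here it overlapped C3Bir with flagellin (10.83, 10.31 and 10.89).

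Fas encodes the receptor of Fas ligand, a death domain receptor that is raised on activated immune cells. Unstimulated values were 8.40, 8.53 and 8.53 in B6, 7.19, 8.56 and 8.37 in C3Bir, 8.35, 6.86 and 6.86 in BC-R3, and 6.67, 6.61 and 6.87 in CB-R1. With flagellin they were 8.43, 7.60 and 7.64 in B6, 7.55, 7.48 and 7.33 in C3Bir, 7.79, 7.76 and 8.29 in BC-R3, and 7.24, 7.13 and 7.45 in CB-R1. Unlike Tnf, Fas was as high on unstimulated C3Bir arrays 2 and 3 as in unstimulated B6.

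**Figure D2:**
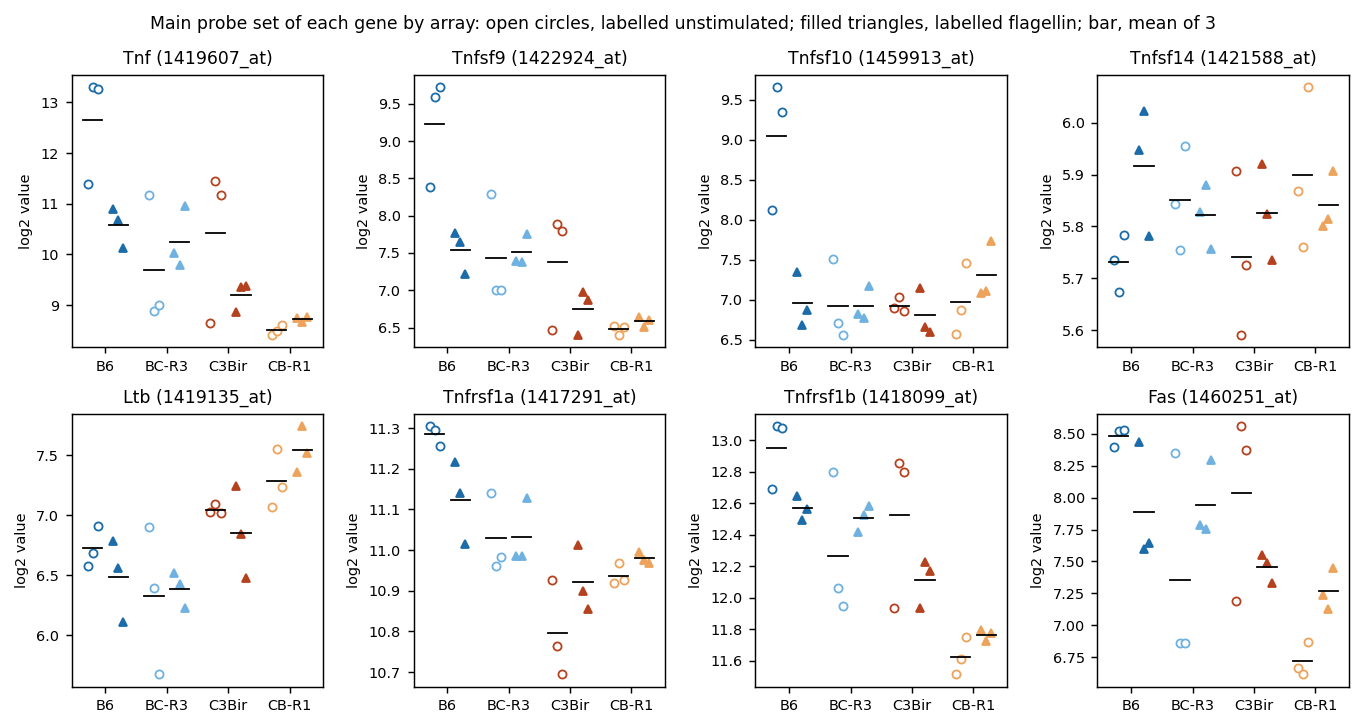
Log2 value (y axis, own scale per panel) of the main probe set of each of the 8 genes on all 24 arrays, by strain (x axis), with open circles for unstimulated and filled triangles for flagellin arrays, points in array order from left to right, and bars for the mean of 3 arrays. Tnf, Tnfsf9, Tnfrsf1b and Fas share their high and low arrays, Tnfsf10 is high only in unstimulated B6, and Ltb is highest in CB-R1.

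Flagellin arrays were set against unstimulated arrays within each strain with limma over all 45033 probe sets, to ask how the cells changed under a bacterial stimulus. In B6, 5 of the 12 probe sets changed (adjusted p under 0.05), all of them lower with flagellin, against 17.2% of all probe sets called and 7.94% called lower. Tnf fell by 2.08 ± 0.63 (log2, SE, 3 against 3; 4.24-fold, adjusted p = 0.0287) and Tnfsf9 fell by 1.69 ± 0.36 (3.23-fold, adjusted p = 0.00644). Tnfsf10 fell by 2.08 ± 0.32 on its main probe set (4.23-fold, adjusted p = 0.00234), and differed by -1.45 ± 0.27 and -1.26 ± 0.25 on the others. The flagellin and unstimulated B6 arrays did not overlap for 7 of the 12, these 5 probe sets, Tnfrsf1a and the main Tnfrsf1b probe set, all lower with flagellin, against 26.4% of all probe sets without overlap and 13.9% in this direction. The differences were -0.39 for the main Tnfrsf1b probe set (adjusted p = 0.182), -0.59 for Fas (adjusted p = 0.217), -0.16 for Tnfrsf1a (adjusted p = 0.111), -0.24 for Ltb (adjusted p = 0.489) and 0.19 for the main Tnfsf14 probe set (adjusted p = 0.146), none past the threshold. The median over the 12 probe sets was -0.49, and -0.03 over all probe sets.

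The size of these falls rests in part on unstimulated B6 arrays 2 and 3. The 4 high arrays left aside leave B6 with 1 unstimulated array, so calls in that fit say little. The differences then were -0.83 ± 0.61 for Tnf, -0.84 ± 0.36 for Tnfsf9 and -1.16 ± 0.38 for the main Tnfsf10 probe set. The remaining unstimulated array still lay above all B6 flagellin arrays for these. It read 11.40 against at most 10.90 for Tnf, 8.38 against 7.77 for Tnfsf9 and 8.12 against 7.34 for Tnfsf10. Leaving out 1 array at a time, the Tnfsf10 calls held; that of Tnfsf9 was lost without unstimulated B6 array 3 (highest adjusted p = 0.0524), and that of Tnf without unstimulated B6 array 2 or 3 or flagellin array 1 or 3 (highest adjusted p = 0.135), and the count was 3 without unstimulated B6 array 3. Without the 3 arrays apart 7 of the 12 were called, with the main Tnfrsf1b probe set at -0.52 ± 0.09 (adjusted p = 0.000278) and Fas at -0.64 ± 0.19 (adjusted p = 0.0197) besides the 5.

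In C3Bir, BC-R3 and CB-R1 no probe set passed the threshold with flagellin, members or others (0% in each; limma). At an unadjusted p under 0.05 there were 3404, 4024 and 1436 probe sets in these strains, of which 1, 1 and 0 belong to the 12; these were the second Tnfrsf1b probe set in C3Bir (-0.91 ± 0.29) and the second Tnfsf14 probe set in BC-R3 (-0.22 ± 0.07). For Tnf the difference was -1.22 ± 0.63 in C3Bir, 0.57 ± 0.63 for BC-R3 and 0.23 ± 0.63 for CB-R1, and for Fas it was -0.58, 0.59 and 0.55 with an SE of 0.34 each. In CB-R1 every flagellin array of Tnf, of Fas and of Tnfrsf1a lay above every unstimulated one, against 11.2% of all probe sets without overlap and 5.58% in this direction, and none of these differences passed the test.

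Without the 3 arrays apart, C3Bir and BC-R3 gained calls as B6 did, those in BC-R3 in the opposite direction. The share of all probe sets called in that fit is not given here, so these gains are not shown to be particular to the 12. In C3Bir 5 of the 12 were then lower with flagellin, with Tnf at -2.10 ± 0.25 (adjusted p = 5.13e-05), Tnfsf9 at -1.10 ± 0.16, Fas at -1.01 ± 0.19 and the Tnfrsf1b probe sets at -0.71 ± 0.09 and -1.18 ± 0.29. In BC-R3 3 were then higher, with Tnf at 1.31 ± 0.25 (adjusted p = 0.00679), Fas at 1.09 ± 0.19 and the main Tnfrsf1b probe set at 0.50 ± 0.09. CB-R1 had 0 calls under either exclusion.

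The change with flagellin was also compared between strains. Between BC-R3 and B6 it differed for 3 of the 12 probe sets, all higher in BC-R3, against 8.05% of all probe sets called and 3.31% called higher. These were the main Tnfsf10 probe set by 2.07 ± 0.45 (adjusted p = 0.0191), the second Tnfsf10 probe set by 1.44 ± 0.38 (adjusted p = 0.0304) and Tnfsf9 by 1.77 ± 0.52 (adjusted p = 0.0424). For Tnf the difference was 2.65 ± 0.88 (adjusted p = 0.0640). Between C3Bir and B6, and between CB-R1 and C3Bir, 0 of the 12 and 0% of all probe sets passed; at an unadjusted p under 0.05 there were 6254 and 2237 probe sets, 4 and 2 of them members. The BC-R3 result fell to 0 of the 12 without the 4 high arrays and rose to 7 without the 3 arrays apart; it was 0 without unstimulated array 2 or 3 of B6 or of BC-R3, or without BC-R3 flagellin array 3, 1 without B6 flagellin array 3 or BC-R3 flagellin array 2, and 5 or 7 without unstimulated array 1 of B6 or of BC-R3. Between C3Bir and B6 the 3 Tnfsf10 probe sets were called, higher in C3Bir, without unstimulated B6 array 1 (the main one at 2.42 ± 0.38, adjusted p = 0.000773), and 5 of the 12 without the 3 arrays apart.

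**Figure D3:**
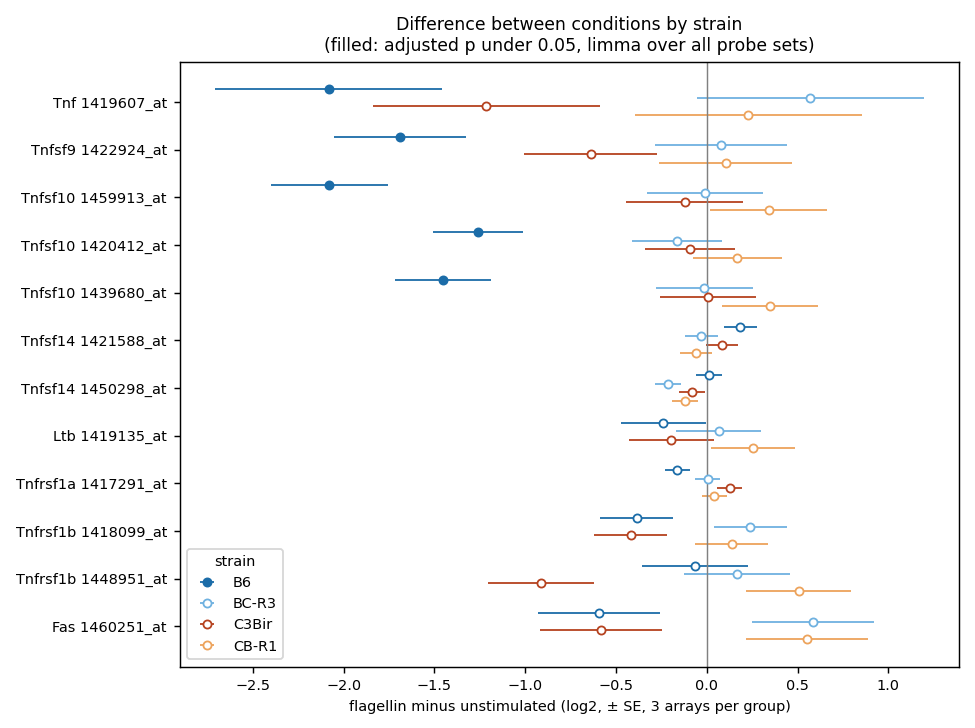
Flagellin minus unstimulated difference (x axis, log2, with SE bars from limma, 3 arrays per group) for the 12 probe sets (y axis) in each strain, filled where the adjusted p was under 0.05. In B6 the Tnf, Tnfsf9 and Tnfsf10 points lie between -2.08 and -1.26 and are filled; in the other strains no point is filled.

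The parental strains were compared first without stimulus. In unstimulated cells 6 of the 12 probe sets were lower in C3Bir than in B6, and none higher, against 13.4% of all called and 5.36% called lower. The log2 difference was -2.24 ± 0.63 for Tnf (adjusted p = 0.0210), -1.85 ± 0.36 for Tnfsf9 (adjusted p = 0.00203), -2.12 ± 0.32 for the main Tnfsf10 probe set (adjusted p = 0.000180) and -0.49 ± 0.07 for Tnfrsf1a (adjusted p = 0.000103). The main Tnfrsf1b probe set differed by -0.42 ± 0.20 (adjusted p = 0.186) and Fas by -0.44 ± 0.34 (adjusted p = 0.450). The 3 arrays of each strain did not overlap for 6 of the 12, lower in C3Bir for Tnfsf9, Tnfrsf1a and the 3 Tnfsf10 probe sets and higher for Ltb (0.32, adjusted p = 0.425), against 27.7% of all probe sets without overlap. For Tnf, C3Bir array 2 overlapped B6 array 1. The call for Tnf was lost without unstimulated B6 array 2 or 3 or C3Bir array 1 (highest adjusted p = 0.148). Without the 4 high arrays each strain had 1 array, taken to vary like the other groups, and 0 of the 12 were called, with Tnf at -2.76 ± 0.75 (adjusted p = 0.108) and Tnfsf9 at -1.91 ± 0.45 (adjusted p = 0.0539).

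With flagellin, 0 of the 12 differed between C3Bir and B6 past the threshold, against 5.68% of all probe sets, and 6 of the 12 had an unadjusted p under 0.05, as had 18.1% of all. C3Bir arrays lay wholly below B6 arrays for 7 of the 12, where 18.9% of all probe sets did not overlap and 7.91% in this direction. These were Tnf (-1.37 ± 0.63, adjusted p = 0.248), Tnfsf9 (-0.80 ± 0.36), Tnfrsf1a (-0.20 ± 0.07), Fas (-0.43 ± 0.34), both Tnfrsf1b probe sets (-0.46 ± 0.20 and -0.82 ± 0.29) and the second Tnfsf14 probe set (-0.20). The Tnf difference was called in a fit of these arrays alone (adjusted p = 0.0167). It was also called without the 3 arrays apart (adjusted p = 0.000437), none of which is in this comparison. The difference stayed at -1.37 there and only its SE changed, from 0.63 to 0.22, so that call adds no support of its own. The second Tnfrsf1b probe set was called without unstimulated CB-R1 array 3 (adjusted p = 0.0375).

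BC-R3 was set against B6, its background, to ask what the C3Bir alleles at Cdcs1 change. Unstimulated, 9 of the 12 differed, 8 lower and 1 higher in BC-R3, against 26.5% of all called, 11.2% lower and 15.3% higher. The log2 difference was -2.97 ± 0.63 for Tnf (7.86-fold, adjusted p = 0.00266), -1.80 ± 0.36 for Tnfsf9 and -2.12 ± 0.32 for the main Tnfsf10 probe set. Among the receptors it was -1.13 ± 0.34 for Fas (adjusted p = 0.0190), -0.68 ± 0.20 for the main Tnfrsf1b probe set (adjusted p = 0.0175) and -0.26 ± 0.07 for Tnfrsf1a (adjusted p = 0.0119). The 1 higher was the dim second Tnfsf14 probe set (0.27 ± 0.07). With flagellin 0 of the 12 differed, against 0.0222% of all; Tnf differed by -0.32 ± 0.63, Tnfsf10 by -0.05 ± 0.32 and Fas by 0.06 ± 0.34. The calls for Tnf, Tnfsf9 and Tnfsf10 held when any 1 array was left out; those for Fas and Tnfrsf1b were lost without unstimulated array 2 or 3 of either strain, that for Tnfrsf1a without BC-R3 array 2 or 3, and that for Tnfsf14 without array 2 of either, and Ltb was called without BC-R3 array 1 (-0.69 ± 0.22, adjusted p = 0.0245). The count was 5 without unstimulated BC-R3 array 2 and 0 without the 4 high arrays, which leave B6 with 1 unstimulated array. The differences then were -1.72 ± 0.61 for Tnf (adjusted p = 0.324), -0.95 ± 0.36 for Tnfsf9, -1.19 ± 0.38 for the main Tnfsf10 probe set, -1.04 ± 0.43 for Fas, -0.42 ± 0.22 for the main Tnfrsf1b probe set, -0.28 ± 0.10 for Tnfrsf1a and 0.23 ± 0.10 for the second Tnfsf14 probe set.

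CB-R1 was set against C3Bir, its own background. Unstimulated, 3 of the 12 differed, 2 lower and 1 higher in CB-R1, against 0.586% of all called, 0.171% lower and 0.415% higher. The lower ones were both Tnfrsf1b probe sets (-0.90 ± 0.20, adjusted p = 0.0455, and -1.60 ± 0.29, adjusted p = 0.0182), and the higher one was the second Tnfsf14 probe set (0.33 ± 0.07, adjusted p = 0.0421). Tnf differed by -1.92 ± 0.63 (adjusted p = 0.139) and Fas by -1.32 ± 0.34 (adjusted p = 0.0672). These 2 and the 3 called probe sets did not overlap, against 18.9% of all probe sets. Without C3Bir array 1 both were called, at -2.81 ± 0.55 and -1.75 ± 0.32, and 6 of the 12 in all. Over the fits that left out 1 array, 21 to 2869 of all probe sets were called. The 0.586% above is therefore not the share to set beside this count of 6. The count was 0 without unstimulated C3Bir array 2 or 3, without unstimulated CB-R1 array 1 or 2, and without the 4 high arrays, which leave C3Bir with 1 unstimulated array. The Tnfrsf1b differences then were -0.31 ± 0.22 and -1.06 ± 0.40, that of the second Tnfsf14 probe set 0.30 ± 0.10, and that of Tnf -0.15 ± 0.61. The count was 1 without flagellin array 2 of C3Bir, 1 or 2 of BC-R3, or 2 or 3 of CB-R1. The call of the main Tnfrsf1b probe set held in 7 of the 24 fits that left out 1 array. With flagellin 0 of the 12 differed, against 0.0555% of all. The arrays did not overlap for 4, where 16.7% of all probe sets did not, and these were Tnf (-0.48), the main Tnfrsf1b probe set (-0.35), the second Tnfsf14 probe set (0.30) and Ltb (0.69 ± 0.23, adjusted p = 0.358).

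The widest comparison joined the strains by background, C3Bir and CB-R1 against B6 and BC-R3, over both conditions. Here 9 of the 12 probe sets were called, 8 lower and 1 higher in the C3Bir background, against 22.4% of all called, 9.9% lower and 12.5% higher. The median over the 12 was -0.43, and 0.01 over all probe sets. The log2 difference was -1.58 ± 0.31 for Tnf (2.99-fold, adjusted p = 0.000744) and -1.13 ± 0.18 for Tnfsf9 (adjusted p = 8.83e-05). Among the receptors it was -0.57 ± 0.10 and -0.76 ± 0.15 for the Tnfrsf1b probe sets (adjusted p = 0.000255 and 0.000512), -0.55 ± 0.17 for Fas (adjusted p = 0.0219) and -0.21 ± 0.04 for Tnfrsf1a (adjusted p = 0.000136). Ltb was higher by 0.70 ± 0.12 (1.63-fold, adjusted p = 0.000127). Tnfsf10 differed by -0.46 ± 0.16 and -0.39 ± 0.13 on 2 of its 3 probe sets (adjusted p = 0.0433 and 0.0368).

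Leaving out any 1 array ended none of the calls for Tnf, Tnfsf9, Tnfrsf1a, Tnfrsf1b, Fas and Ltb. The main Tnfsf10 probe set kept its call in 8 of those 24 fits and the second in 12, and the remaining one was called without unstimulated B6 array 1 (-0.35 ± 0.09, adjusted p = 0.00620). The share of all probe sets called without the 4 high arrays is not given here. Calls kept in that fit are therefore not shown to be particular to the 12. Without the 4 high arrays 7 of the 12 stayed called, the same ones without Tnfsf10: Tnf at -1.71 ± 0.27, Tnfsf9 at -1.15, Fas at -0.74, Tnfrsf1b at -0.65 and -0.83, Tnfrsf1a at -0.18 and Ltb at 0.73.

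The flagellin arrays alone, none of which is among the arrays that stood apart, also split by background. For 5 of the 12 probe sets all 6 arrays of the B6 background lay above all 6 of the C3Bir background, against 7.47% of all probe sets without overlap in either direction and 3.67% in this one. For Tnf the B6 background ran from 9.80 over a median of 10.41 to 10.95, and the C3Bir background from 8.67 over 8.82 to 9.38. For Tnfsf9 the ranges were 7.22 to 7.77 (median 7.52) and 6.40 to 6.97 (median 6.62), and for Fas 7.60 to 8.43 (median 7.77) and 7.13 to 7.55 (median 7.39). Both Tnfrsf1b probe sets separated as well, the main one at 12.42 to 12.65 (median 12.54) and 11.73 to 12.23 (median 11.86). On the unstimulated arrays only Ltb of the 12 separated, higher in the C3Bir background (7.02 to 7.55, median 7.08, against 5.67 to 6.91, median 6.63), where 4.38% of all probe sets separated and 2.1% in this direction.

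**Figure D4:**
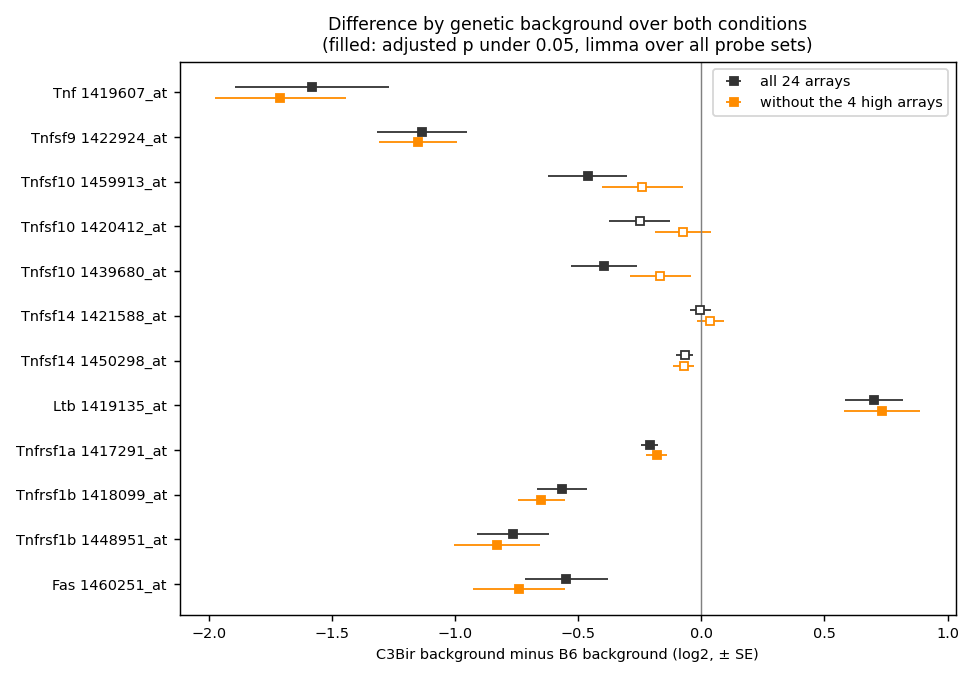
Difference between the C3Bir background (C3Bir and CB-R1) and the B6 background (B6 and BC-R3) over both conditions (x axis, log2, with SE bars from limma) for the 12 probe sets (y axis), with all 24 arrays and without the 4 high arrays, filled where the adjusted p was under 0.05. Tnf lies at -1.58 and -1.71, Ltb at 0.70 and 0.73, and Tnfsf10 is no longer filled without the 4 high arrays.

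Markers of other cells moved with Ltb. Of the 9 neutrophil markers 8 were measured, and 7 or 8 of them were above the array median on every array. All 8 were called higher in the C3Bir background (median difference 0.77), where 12.5% of all probe sets were called higher. Their mean was 11.93 to 12.17 over the CB-R1 arrays, 11.02 to 11.85 over the C3Bir arrays, 10.55 to 11.39 over the B6 arrays and 10.53 to 11.35 over the BC-R3 arrays. Over the 24 arrays Ltb and this mean correlated at 0.838. The genes most like Ltb over the arrays were Pi16, Pglyrp1 and Mcemp1 (Pearson r = 0.915, 0.915 and 0.904); Pglyrp1 encodes a peptidoglycan recognition protein of neutrophil granules. The part of neutrophil RNA in the Ltb difference was not tested.

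All 8 stromal cell markers were measured, and few were called in the comparisons with unstimulated B6. Their median difference was -0.69 with flagellin in B6 (0 called), -1.06 in unstimulated C3Bir against B6 (1 called, lower), -0.93 in unstimulated BC-R3 against B6 (2 called, lower) and 1.22 for the flagellin change in BC-R3 against B6 (1 called, higher). Their mean ran from 7.72 to 9.03 over the unstimulated B6 arrays, 7.00 to 8.73 with flagellin in B6, 7.11 to 7.69 in unstimulated C3Bir and 7.23 to 7.82 in unstimulated BC-R3. CB-R1, where Tnf was lowest, had 8.19 to 8.64 unstimulated and 8.27 to 8.50 with flagellin. Of the T and NK cell markers 8 of 11 were measured, and 3 were called lower with flagellin in B6 and 3 in unstimulated BC-R3 against B6, with medians of -0.13 and -0.10. Of all probe sets 7.94% and 11.2% were called lower in these comparisons. Their mean was 6.29 to 6.33 in unstimulated B6, 6.08 to 6.27 with flagellin in B6 and 6.13 to 6.22 in unstimulated BC-R3. Also called lower with flagellin in B6 were 2 of 7 B cell, 2 of 6 mast cell and basophil and 1 of 7 dendritic cell markers. In unstimulated BC-R3 against B6 these lists had 0, 1 and 1 lower, while 3 of 9 macrophage markers were higher, beside 15.3% of all probe sets called higher. The part of these cells in the B6 differences was not tested.

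**Figure D5:**
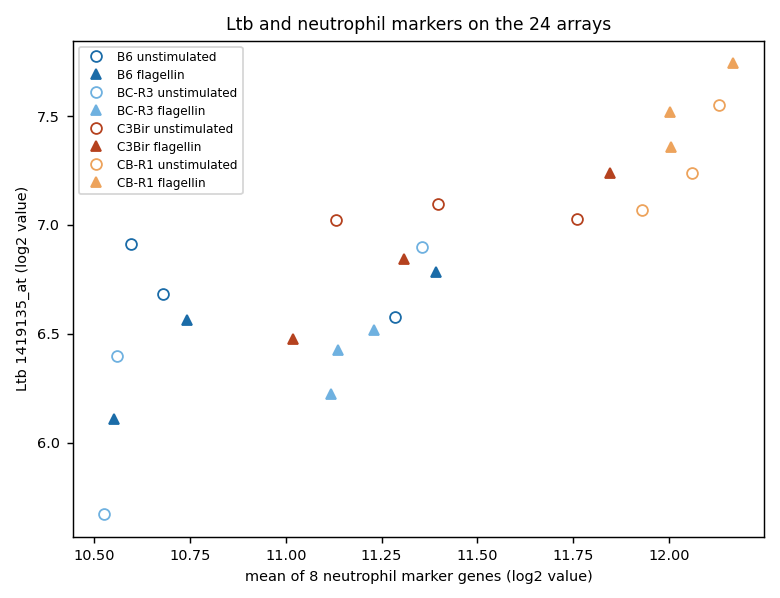
Mean log2 value of 8 neutrophil marker genes (x axis) against the log2 value of Ltb (y axis), 1 point per array, coloured by strain, with open circles for unstimulated and filled triangles for flagellin arrays. The CB-R1 arrays lie at the upper right, with a marker mean of 11.93 to 12.17.

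The effect of the Cdcs1 allele was taken as C3Bir and BC-R3 against B6 and CB-R1, over both conditions. Of the 12 probe sets 1 was called, the main Tnfsf10 probe set, lower with the C3Bir allele (-0.68 ± 0.16, adjusted p = 0.0415), against 1.32% of all called and 0.484% called lower. Its mean was 9.04 in unstimulated B6 and ran from 6.80 to 7.31 over all other groups. BC-R3 minus B6 was -2.12 ± 0.32 unstimulated and -0.05 ± 0.32 with flagellin. CB-R1 minus C3Bir was 0.04 ± 0.32 unstimulated and 0.50 ± 0.32 with flagellin, neither of them called. Tnfsf10 lies on chromosome 3, as does Cdcs1, and is the only one of the 8 genes there; whether it lies within the exchanged segments was not examined. The call held in 6 of the 24 fits that left out 1 array, and the count ran from 0 to 5 over them, with 4 and 5 without unstimulated array 1 of B6 and of BC-R3, and 2 without B6 flagellin array 3 or array 1 of C3Bir in either condition. The count was 1 without B6 flagellin array 1, and also without unstimulated CB-R1 array 3, where the call was that of the second Tnfrsf1b probe set, higher with the C3Bir allele (0.47 ± 0.12, adjusted p = 0.0484), and not of Tnfsf10. It was 0 without any 1 of the remaining 17 arrays. It was 0 without the 4 high arrays and 6 without the 3 arrays apart. Tnfrsf1a differed by -0.14 ± 0.04 (adjusted p = 0.0555), Ltb by -0.36 ± 0.12 (adjusted p = 0.121), Tnf by -0.22 ± 0.31 (adjusted p = 0.789) and Fas by 0.11 ± 0.17 (adjusted p = 0.813).

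The 250 bases before the start site are shown for the genes whose patterns parted, with RefSeq sequences of GRCm38.p6. Tnf and Ltb are next to each other on chromosome 17 in the RefSeq gene table, yet differed in opposite directions by background. Tnfsf10 was high in unstimulated B6 alone, and Tnfrsf1b differed by background on both probe sets. Capitals mark matches to GGGNNNNNCC, a loose form of the NF-kB site, and to GAAANNGAAA, the core of an interferon-stimulated response element, both on either strand, and to TATAAA on the gene's own strand. Windows are Tnf at chr17:35202008-35202257 on the minus strand, Ltb at chr17:35194257-35194506 on the plus strand, Tnfrsf1b at chr4:145246871-145247120 on the minus strand and Tnfsf10 at chr3:27316827-27317076 on the plus strand, each written 5′ to 3′.
Tnf: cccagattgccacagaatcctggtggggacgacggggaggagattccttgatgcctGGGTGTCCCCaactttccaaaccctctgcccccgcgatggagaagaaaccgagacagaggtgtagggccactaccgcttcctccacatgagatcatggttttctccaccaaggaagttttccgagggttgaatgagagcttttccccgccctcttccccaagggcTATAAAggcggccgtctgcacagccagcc
Ltb: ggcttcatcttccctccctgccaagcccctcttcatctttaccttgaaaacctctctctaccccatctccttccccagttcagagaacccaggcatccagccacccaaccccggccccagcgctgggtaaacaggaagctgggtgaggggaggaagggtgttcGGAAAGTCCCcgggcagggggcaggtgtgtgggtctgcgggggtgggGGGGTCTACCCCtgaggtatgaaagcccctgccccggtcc
Tnfrsf1b: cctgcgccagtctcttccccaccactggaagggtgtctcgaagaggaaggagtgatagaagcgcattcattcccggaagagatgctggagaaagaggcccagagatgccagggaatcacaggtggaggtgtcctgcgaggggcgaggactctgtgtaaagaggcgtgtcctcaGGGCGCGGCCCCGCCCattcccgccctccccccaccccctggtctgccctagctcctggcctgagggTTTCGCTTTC
Tnfsf10: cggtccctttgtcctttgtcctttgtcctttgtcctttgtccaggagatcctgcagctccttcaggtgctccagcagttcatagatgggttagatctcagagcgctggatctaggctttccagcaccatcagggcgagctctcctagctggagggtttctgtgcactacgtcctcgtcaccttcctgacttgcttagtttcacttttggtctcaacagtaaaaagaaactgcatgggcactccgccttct

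Of the 8 genes 7 had such a window, Tnfsf9 being the exception. The loose form was found in 6 of the 7, and in 45.8% of all 32851 windows. The stricter NF-kB consensus, which is part of the loose form, was found in 1 of the 7, Ltb (87 to 78 bases before the start), and in 7.25% of all windows. The interferon response core was found in Tnfrsf1b, 10 bases before the start, and in 2.98% of all windows, and TATAAA in Tnf, 29 bases before the start, and in 7.59% of all. The Tnfsf10 window held none of them. A match is a description of the letters and not a site, and these windows leave out more distant elements.

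The genes most like each member over the 24 arrays were taken by Pearson correlation, as a description over arrays that share groups and the high arrays. For Tnf they were Kpna3 (0.985), Foxp4 (0.983) and Nlrp3 (0.980), and for Tnfsf9 Kpna3 (0.983), Nlrp3 (0.981) and Tnf itself (0.978). Nlrp3 encodes an inflammasome sensor and Kpna3 a nuclear import receptor. For Fas they were Tlr2 (0.981), Irak3 (0.981) and Mmp14 (0.978), that is, a receptor for bacterial lipoproteins, an inhibitor of its signalling and a membrane protease. For Tnfrsf1b they were Zc3h12c, Sqstm1 and Ralgds (0.977, 0.977 and 0.976). For Tnfsf10 they were Setdb2, Ifih1 and Aida (0.982, 0.979 and 0.975); Ifih1 encodes the RNA sensor MDA5. The highest values were lower for Tnfrsf1a (Pxk, 0.892) and Tnfsf14 (Cela1, 0.737).

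Other genes of the pathway were counted from lists, each gene by its main probe set. Of 35 genes of TNF receptor signalling and death 30 were measured, and 16 were lower and 0 higher in the C3Bir background, where 9.9% of all probe sets were called lower (median -0.25, against 0.01 over all). Among them were Ikbkg, the regulatory subunit of the NF-kB kinase (-0.88 ± 0.08), Relb, an NF-kB subunit (-0.75 ± 0.13), Bid, a link from death receptors to mitochondria (-0.74 ± 0.09), and Traf1, an adaptor (-0.94 ± 0.31). In unstimulated cells 10 were lower and 1 higher in C3Bir than in B6, and 16 lower and 3 higher in BC-R3 than in B6, beside 5.36% of all probe sets called lower in the first comparison and 11.2% lower and 15.3% higher in the second. With flagellin 2 were lower in C3Bir than in B6, Ikbkg (-0.77 ± 0.16) and Bid (-0.71 ± 0.17), beside 5.68% of all probe sets called. Between BC-R3 and B6 with flagellin 0 differed, beside 0.0222% of all. For the counts of these genes without the 4 high arrays, no share of all probe sets is given here. Without the 4 high arrays 15 were lower and 0 higher in the C3Bir background, while 2 were lower in unstimulated C3Bir and 0 differed in unstimulated BC-R3.

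With flagellin in B6, 13 of the 30 fell and 2 rose, beside 17.2% of all probe sets called and 7.94% called lower (median -0.37, against -0.03 over all). Among the falls were Traf1 (-1.91 ± 0.62), Cflar, an inhibitor of caspase 8 (-1.46 ± 0.36), Mlkl, the effector of necroptosis (-1.38 ± 0.26), and Tnfaip3, the feedback inhibitor A20 (-1.09 ± 0.35). Without the 4 high arrays 0 of the 30 passed in B6, and in the other strains 0 passed with all arrays. Relb (-1.17 ± 0.25) and Adam17, the protease that sheds TNF (-0.65 ± 0.14), were lower in unstimulated CB-R1 than in C3Bir, beside 0.171% of all probe sets called lower. The change with flagellin was higher in BC-R3 than in B6 for 4, Traf1, Mlkl, Rnf31 and Traf2, beside 8.05% of all probe sets called and 3.31% called higher. By Cdcs1 allele 0 of the 30 passed, beside 1.32% of all probe sets.

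Of 25 other receptors of the family 24 were measured, and 3 were higher and 2 lower in the C3Bir background, a share near the 12.5% of all probe sets called higher and 9.9% called lower. Higher were Tnfrsf21, the death receptor DR6 (1.26 ± 0.12), Tnfrsf14, the LIGHT receptor HVEM (0.82 ± 0.10), and Tnfrsf12a, the receptor of TWEAK (0.27 ± 0.10), and Cd40, the receptor of CD40 ligand on antigen-presenting cells, was lower (-1.15 ± 0.39). With flagellin in B6, Cd40 fell by 2.66 ± 0.78 and Tnfrsf21 rose by 0.86 ± 0.24. Of 13 other ligands 9 were measured, and 3 were higher in the C3Bir background, Tnfsf13b, the B cell survival factor BAFF (0.54 ± 0.07), Cd40lg (0.15 ± 0.04) and Tnfsf8 (0.12 ± 0.04), and 0 lower, beside the same shares of all probe sets. With flagellin in B6 Lta, the soluble partner of lymphotoxin beta, fell by 0.40 ± 0.13, the only call among the 9. With flagellin in B6 0 of the 24 receptors and 0 of the 9 ligands passed when the 4 high arrays were left aside, and without the 3 arrays apart 4 of the ligands were lower.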

How the data were processed

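Log2 values per probe set, as the authors deposited them in 1 table, were used without further normalization, since array medians lay close together. The authors' method for these log2 values was not stated. Of 45037 probe sets 4 had no values. Gene names came from the platform annotation. For main probe sets, lists and correlated genes they were updated to RefSeq symbols through the Entrez number. Promoter windows and neighbouring genes were looked up by symbol. A linear model of 8 group means was fitted to all 24 arrays (3 per group, 16 residual degrees of freedom) with limma 3.58.1 (lmFit and eBayes) in R 4.3.3, with 15 two-sided contrasts and Benjamini-Hochberg adjustment over all probe sets within a contrast. Each adjusted p and SE is from this fit unless its sentence or the one before names another fit or arrays left out, and a call is an adjusted p under 0.05. The fit was tested on simulated data. The members and lists were chosen with earlier results of these data known.

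Values per array are given in the text for each gene's main probe set except for Tnfsf14, whose probe sets are given as ranges. For the other probe sets of Tnfsf10 and Tnfrsf1b the values of some groups are given. From each list up to 4 called genes per contrast could be named, and the 3 genes most correlated with each member. The lists hold 134 genes, of which 116 were measured. Alternatives were a low-value filter (all 12 probe sets passed it), quantile normalization or median centring, 1 probe set or the mean per gene, the trend and robust options of eBayes, fits to only the arrays compared, blocks by array number, and leaving out each array. Leaving aside the 4 high arrays or the 3 arrays apart was chosen after seeing the data.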

Additional observations from a re-analysis of the deposited data

Results flagged for a closer look

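The change with flagellin differed between BC-R3 and B6, by limma's test of the difference, for Tnfsf9 (1.77 ± 0.52 higher in BC-R3, log2, SE, adjusted p = 0.0424) and for Tnfsf10 on its main probe set (2.07 ± 0.45, adjusted p = 0.0191) and its second one (1.44 ± 0.38, adjusted p = 0.0304). For these the unstimulated B6 arrays were high and the mean change in BC-R3 was small (0.08, -0.01 and -0.01). For all 3 that mean joins unlike arrays. In BC-R3 Tnfsf9 read 8.30, 7.01 and 7.00 unstimulated and 7.40, 7.38 and 7.76 with flagellin. The main Tnfsf10 probe set read 7.51, 6.71 and 6.56 unstimulated and 6.82, 6.77 and 7.17 with flagellin. Its second one read 7.01, 6.08 and 6.16 unstimulated and 6.27, 6.33 and 6.61 with flagellin. For each, unstimulated array 1 lay above all flagellin arrays, and arrays 2 and 3 below them. Of the 24 fits that left out 1 array, the 3 calls held in 9, 19 and 17.

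All flagellin arrays of Tnf lay below all unstimulated arrays in B6 and above them in CB-R1, so that the change was higher in CB-R1 by 2.31 (log2). For Tnfrsf1a the same was seen, with a difference of 0.20. These differences between CB-R1 and B6 were not tested.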

How the results depend on the processing

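Of 36 differences called for member probe sets, 20 stayed called whichever array was left out, and none of the 36 reversed under any alternative run. Of 144 not called, 40 gained a call somewhere. Calls were kept under quantile normalization in 35 of 36, median centring and the low-value filter in 36 of 36, trend and robust options in 31 of 36, and averaged probe sets in 21 of 24. The main fit shares 1 spread over groups that spread unequally. For Tnf the SD was 1.09, 1.54 and 1.29 in unstimulated B6, C3Bir and BC-R3. In CB-R1 it was 0.10 unstimulated and 0.05 with flagellin. The shared spread can thus be too small for comparisons of the wide groups and too large for the tight ones. A fit of the compared arrays alone, with fewer arrays to estimate the spread, kept 3 of 26. The counts per comparison (of 12) then became 0 for flagellin in B6, 3 and 1 for C3Bir against B6 without and with flagellin, 0 for both congenic strains unstimulated, and 0 for the change in BC-R3 against B6. By Cdcs1 allele the count was 2 with quantile normalization and 0 with trend and robust options.

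Without the 4 high arrays 7 of 36 calls were kept, all by background, and the other 6 comparisons with calls had 0. Without the 3 arrays apart all 36 were kept, and counts became 7 for flagellin in B6, 5 in C3Bir, 3 in BC-R3, 10 for unstimulated BC-R3 against B6 (Ltb gained), 10 by background (a Tnfsf10 probe set gained), 3 for C3Bir against B6 with flagellin, 6 for unstimulated CB-R1 against C3Bir, 5 and 7 for the change in C3Bir and in BC-R3 set against B6, 5 for that in CB-R1 set against C3Bir, and 6 by allele. The shares of all probe sets called without these 4 or these 3 arrays are not given. Neither the calls kept nor these gains can thus be read as particular to the member genes. The number of all probe sets called already moved strongly when 1 array was left out. It ran from 1438 to 11405 for flagellin in B6 and from 184 to 8456 for the change in BC-R3 against B6. For unstimulated CB-R1 against C3Bir it ran from 21 to 2869, and by allele from 138 to 2440. The cause was not tested.

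Over the fits that left out 1 array each, the counts ran from 3 to 5 for flagellin in B6, 5 to 6 and 0 to 1 for C3Bir against B6 without and with flagellin, 5 to 10 for unstimulated BC-R3 against B6, 0 to 6 for unstimulated CB-R1 against C3Bir, 0 to 3 and 0 to 7 for the change in C3Bir and BC-R3 against B6, 7 to 10 by background and 0 to 5 by allele.

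Arrays of 1 strain with the same number deviated together at correlations from -0.444 to 0.504, with 8 of 12 pairs over 0.1. The pattern differed by strain. All pairs were positive in C3Bir (0.292 to 0.447) and CB-R1 (0.218 to 0.504). Signs were mixed in B6 (-0.291 to 0.121) and BC-R3 (-0.444 to 0.244). The labels tie no number to a mouse, so the main fit used no pairing, though some strains may hold pairs. With the number as a fixed replicate block 35 of 36 calls were kept and the allele count was 2. With strain-by-number pairs as a fixed block 8 of 8 flagellin calls were kept. With the pairs as a random block 33 of 36 were kept, with 5 for the change in BC-R3 against B6 and 0 by allele. The 3 arrays per group, the missing detection calls and the dim Tnfsf14 probe sets limit what these values can show.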
